A study of Mus musculus with 21 samples.

Results

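Limb and muscle identity transcription factors are DNA-binding proteins and their partners that set where a limb forms, which limb it becomes and which muscle genes it uses. The 9 genes described here were *En1*, *Tbx1*, *Zfhx3*, *Zfhx4*, *Pitx1*, *Tbx4*, *Tbx15*, *Six4* and *Eya1*, out of 40853 genes in the count table, and all 9 were found by symbol. They were picked with their own values in view, namely their size-factor normalized counts in the 3 training groups. For this reason their differences between these groups are given as a description, and no p-value of a member in these comparisons is used as a test. RNA was taken from the medial belly of the gastrocnemius, a calf muscle, of 21 female C57BL/6NJ mice, with 1 library per mouse and 7 mice in each group. Mice entered the study at 10 weeks of age. The Inactive group stayed in standard housing and did not train for 6 weeks. The Active group ran on a treadmill for 6 weeks, in 5 sessions a week that were built up to 40 min with the warm-up included, the main stretch at about 70% of maximal running speed. The Activity Reduction group trained in the same way for 4 weeks and then stopped for 2 weeks. Mice of all 3 groups, the Inactive group included, ran a final maximal test 48 to 72 h before tissue was taken. A single inbred strain and 1 sex were sequenced.

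In the embryo, *Pitx1* and *Tbx4* act in the hindlimb field and *Tbx5* in the forelimb field, and *En1* marks the ventral side of the limb bud. SIX-family proteins bind DNA, and EYA proteins bind them and supply an activating function. Together they drive myogenic genes in the embryo and fast fibre genes in adult muscle. *Tbx15* is known for its role in limb skeleton formation and in glycolytic muscle fibres, and *Tbx1* for its role in the pharyngeal arches and the muscles of the head. *Zfhx3* and *Zfhx4* encode very large proteins with several homeodomains and zinc fingers.

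Start-site windows of 300 bases, 250 before and 50 after an annotated start, are shown for *En1* and *Tbx1*, whose levels went together across libraries, and for *Six4*, whose window holds a match to the MEF3 motif that SIX-family proteins bind. RefSeq windows (table of build GRCm38.p6) matched 5 of the 9 genes, *En1*, *Tbx1*, *Zfhx3*, *Tbx4* and *Six4*, with 7 windows. *Zfhx4*, *Pitx1*, *Tbx15* and *Eya1* had no entry. Each sequence below occurred once on its chromosome in GRCm39, at the position given, and is written 5′ to 3′ on the strand of the gene, with E-boxes (CANNTG) and MEF3 (TCAGGTTTC, here on the other strand) in capitals.
En1 window, GRCm39 chr1:120529966-120530265, plus strand: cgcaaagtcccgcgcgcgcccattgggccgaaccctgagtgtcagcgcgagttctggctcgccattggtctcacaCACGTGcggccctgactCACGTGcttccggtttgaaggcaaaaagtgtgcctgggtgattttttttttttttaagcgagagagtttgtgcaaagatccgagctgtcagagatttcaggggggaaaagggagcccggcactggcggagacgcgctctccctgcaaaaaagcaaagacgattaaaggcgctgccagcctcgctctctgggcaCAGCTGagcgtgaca
Tbx1 window 1, GRCm39 chr16:18407600-18407899, minus strand: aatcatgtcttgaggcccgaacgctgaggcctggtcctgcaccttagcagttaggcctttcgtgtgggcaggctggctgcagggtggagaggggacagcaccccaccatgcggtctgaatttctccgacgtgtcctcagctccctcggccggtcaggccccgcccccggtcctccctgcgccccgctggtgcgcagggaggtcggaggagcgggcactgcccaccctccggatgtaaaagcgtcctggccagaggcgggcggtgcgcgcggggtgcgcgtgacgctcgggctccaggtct
Tbx1 window 2, GRCm39 chr16:18409372-18409671, minus strand: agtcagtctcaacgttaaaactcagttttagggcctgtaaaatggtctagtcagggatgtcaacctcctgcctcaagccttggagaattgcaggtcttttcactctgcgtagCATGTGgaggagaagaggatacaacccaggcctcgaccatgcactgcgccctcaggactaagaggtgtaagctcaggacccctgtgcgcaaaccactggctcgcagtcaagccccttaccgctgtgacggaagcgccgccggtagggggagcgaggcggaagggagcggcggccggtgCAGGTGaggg
Six4 window 1, GRCm39 chr12:73159970-73160269, minus strand: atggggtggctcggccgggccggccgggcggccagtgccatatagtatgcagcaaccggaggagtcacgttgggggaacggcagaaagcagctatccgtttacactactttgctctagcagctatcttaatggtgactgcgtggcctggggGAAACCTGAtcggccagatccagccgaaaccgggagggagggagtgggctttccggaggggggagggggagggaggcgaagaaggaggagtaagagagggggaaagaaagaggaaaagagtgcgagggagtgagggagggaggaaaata
The *En1* window held 3 E-boxes, and *Tbx1* held 0 in window 1 and 2 in window 2. An E-box is found in 72.3% of all 32851 RefSeq windows of this length, so these matches are common letters. MEF3 is found in 0.429% of all windows, on either strand. The homeodomain core TAATTA (5.29% of all windows) and the T-box element AGGTGTGA (1.28%) were searched on both strands and matched in 0 of the 7 windows of these genes. CG pairs numbered 23 in the *En1* window, and 26 and 16 in the *Tbx1* windows, where the median of all windows was 7. Of all windows, 78.5% held fewer than the *En1* window, and 83.1% and 67% fewer than the *Tbx1* windows, so such numbers are not rare. A match is a description of letters and not a binding site.

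Library totals ran from 38482455 to 59785132 counts, with all 7 Active totals under the lowest Inactive total, 49284630. Muscle fibre genes (*Acta1*, *Ckm*, *Myh4*, *Myh1*, *Tnnt3*) were detected in every library. The summed CPM (counts scaled to the library total) of 24 liver genes divided the libraries into 8 with more liver transcripts, 868 to 2533 CPM, and 13 with fewer, 207 to 416 CPM. The 8 were 1 Inactive, 5 Active and 2 Activity Reduction libraries. In the order of the sample labels these 8 came first, and the other 13 came after them. The liver level and the label order thus cannot be told apart. What the label order stands for was not given in the sources used here. Differences below are therefore also given within this division where it bears on them. The T-box genes gave the pattern of a hindlimb muscle. *Tbx4* had between 81 and 228 counts per library, while *Tbx5*, the forelimb gene, had 0 to 2 counts in each library.

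Levels of the 9 genes spanned a wide range. Per kilobase of merged exon (GENCODE M39), *Tbx15* was highest in the Inactive group, with 1764 ± 206 normalized counts per kb (SD, n = 7 mice). *Eya1* followed with 133 ± 9.24 and *En1* with 97.2 ± 4.89 normalized counts per kb. *Six4* had 95.8 ± 16.8 normalized counts per kb, and its mice overlapped with those of *En1*. Then came *Zfhx3* with 57.8 ± 2.07, *Tbx1* with 44.8 ± 7.36, *Tbx4* with 40.3 ± 4.77 and *Zfhx4* with 35.6 ± 2.52 normalized counts per kb, and each neighbouring pair in this run of 4 overlapped between mice. *Pitx1* was lowest, with 3.72 ± 1.55 normalized counts per kb. All other neighbours in this order were separated, that is, the lowest mouse of one gene lay above the highest mouse of the next. Thus the hindlimb gene *Pitx1* was close to the detection limit in adult muscle, with 3 to 18 counts per library, and *Tbx15* stood far above the rest. The annotation the authors counted on was not given in the sources used here, so lengths may differ from theirs.

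**Figure D1:**
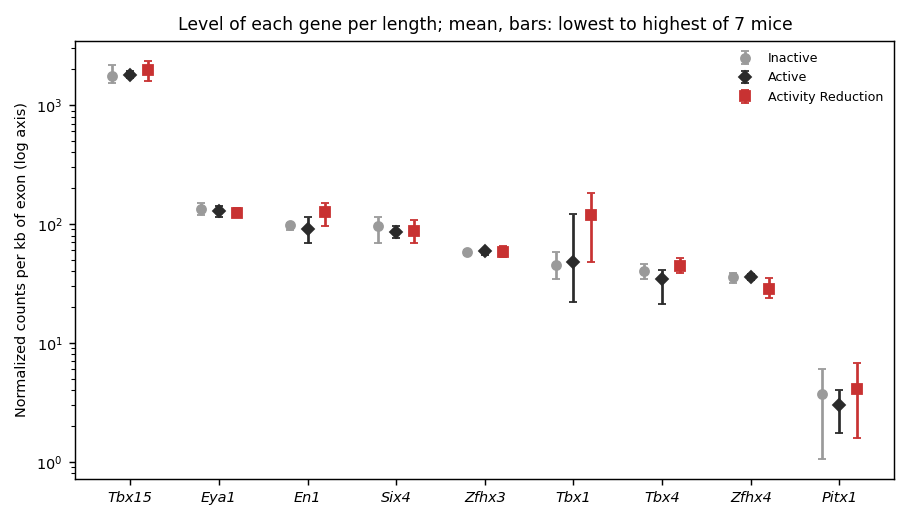
Normalized counts per kb of exon on a log axis for the 9 genes, ordered by their Inactive mean, with 1 symbol for the mean of each group and bars from the lowest to the highest of 7 mice. *Tbx15* lies at 1764 in the Inactive group and *Pitx1* at 3.72, and the Activity Reduction symbol of *Tbx1*, at 119, lies apart from the Inactive one, at 44.8.

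*Tbx1* (chromosome 16, 18399729 to 18409421, GRCm39, minus strand) had the largest log2 fold change of the 9 genes in both Activity Reduction comparisons. Its spread was also wide, with a coefficient of variation of 16.4% in Inactive, 68.1% in Active and 44.0% in Activity Reduction mice. In normalized counts, Inactive mice ranged from 120 to 204 with a median of 156. Active mice ranged from 77.2 to 423 with a median of 141, and Activity Reduction mice from 169 to 640 with a median of 449.8. The Activity Reduction libraries lay in separate sets, with replicates 1, 2, 3, 4 and 6 between 381 and 640 and replicates 5 and 7 at 169 and 186. In the Active group, replicate 3 alone was high, at 423, and the next highest Active library had 155. Activity Reduction and Inactive mice overlapped through replicates 5 and 7, while the other 5 lay above every Inactive mouse. The mean was 2.66 times that of the Inactive group, and the edgeR model gave a log2 fold change of 1.42 with a standard error of 0.316. Set beside Active mice it was 2.48 times as high, at a log2 fold change of 1.31 (standard error 0.316). Between Active and Inactive mice the log2 fold change was 0.11 (standard error 0.317). Its sign was not stable, with -0.31 without Active replicate 3, -0.29 with only the libraries with fewer liver transcripts and -0.048 with the replicate number as a block.

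*En1* (chromosome 1, 120530108 to 120535721, plus strand) had 237 to 272 normalized counts in Inactive mice, with a median of 262. Active mice had 184 to 305.9, with a median of 227, and Activity Reduction mice had 257 to 403, with a median of 332. In the Activity Reduction group, 6 of 7 mice lay above every Inactive mouse, and the same number lay above every Active mouse. Replicate 7 was the lowest there, and it was also among the low libraries for *Tbx1*. Relative to Inactive mice the log2 fold change was 0.38 with a standard error of 0.10, and relative to Active mice it was 0.47 with a standard error of 0.101. Among the 13 low-liver libraries, as the libraries with fewer liver transcripts are called below, the log2 ratio of the means was 0.35 relative to Inactive mice (5 mice against 6) and 0.28 relative to Active mice (5 against 2). In the 8 libraries with more liver transcripts it was 0.44 (2 mice against 1) and 0.62 (2 against 5). For *Tbx1* these ratios were 1.36 and 1.65 in the low-liver libraries and 1.79 and 1.19 in the other 8. Between Active and Inactive mice the ratio for *Tbx1* was -0.29 in the low-liver libraries (2 against 6) and 0.60 in the others (5 against 1).

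*Zfhx4* (chromosome 3, 5283586 to 5480917, plus strand) had the largest difference toward lower values in the Activity Reduction group among the 9 genes. Inactive mice had 497 to 612 normalized counts, with a median of 547, and Active mice had 533 to 595, with a median of 560. Activity Reduction mice had 374 to 549, with a median of 434. There, 6 of 7 mice lay below every Inactive mouse and below every Active mouse, and replicate 7, with 549, was the exception. Its mean differed by -20.9% from that of Inactive mice and by -21.3% from that of Active mice. The log2 fold changes were -0.33 (standard error 0.066) and -0.35 (standard error 0.066). The log2 ratios of the means were -0.27 and -0.31 in the low-liver libraries, and -0.49 and -0.52 in the other 8, with the same numbers of mice as for *En1*. *Zfhx3* (chromosome 8, 108669276 to 109688262, plus strand), its relative, had close group means. Its group means were 1232 ± 44.1, 1251 ± 47.1 and 1245 ± 84.4 normalized counts (SD, n = 7) in the Inactive, Active and Activity Reduction groups. All 3 groups overlapped, and the log2 fold changes lay between -0.01 and 0.03, each with a standard error of 0.042. The difference between *Zfhx3* and *Zfhx4* in this respect was not tested.

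**Figure D2:**
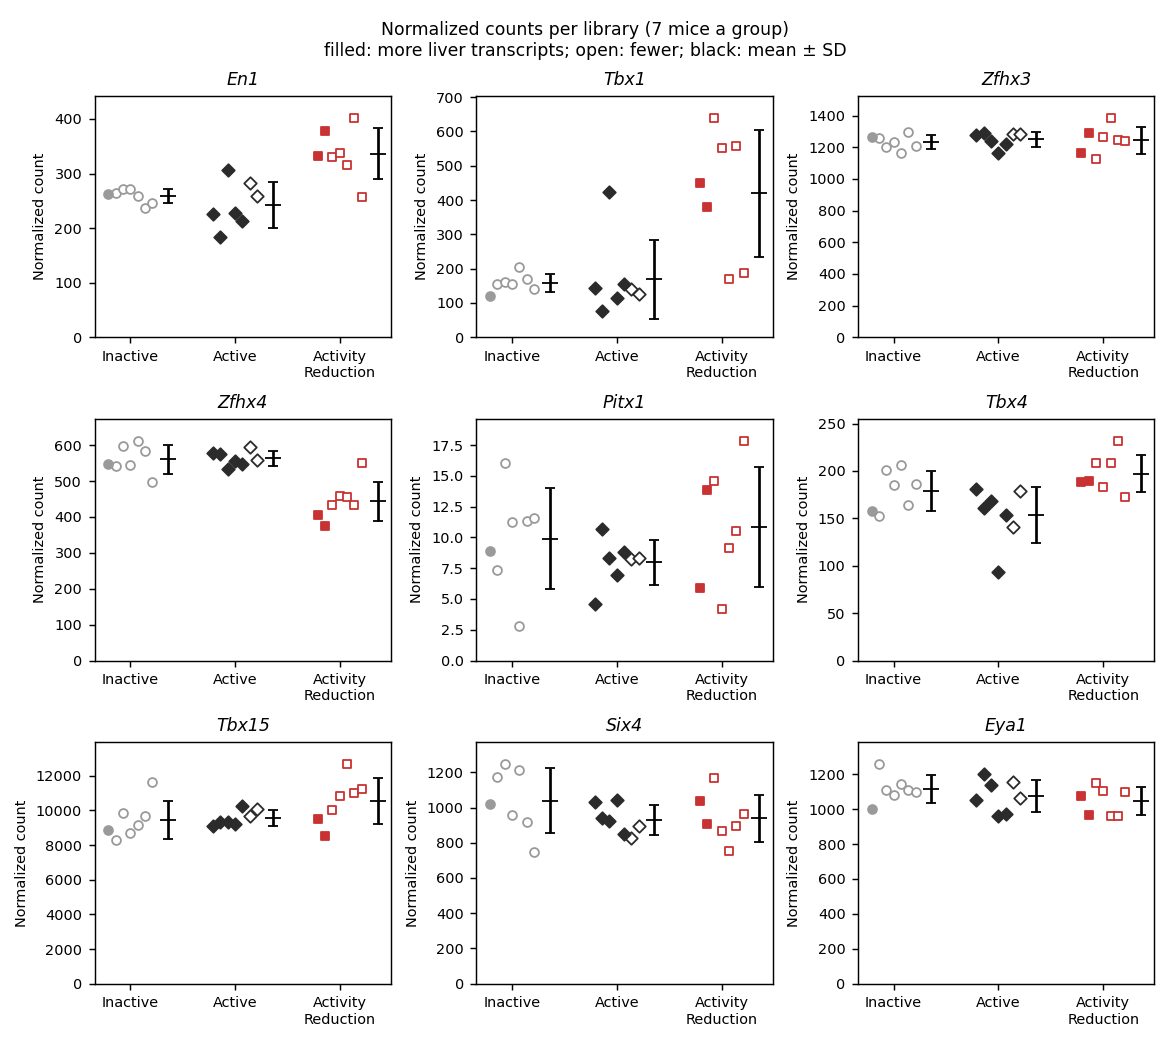
Normalized counts of each of the 9 genes (vertical axis, from 0) in 7 mice of each group, with filled symbols for libraries with more liver transcripts, open symbols for those with fewer, and mean ± SD in black. For *En1* and *Zfhx4*, 6 of 7 Activity Reduction mice lie outside the range of both other groups, and for *Tbx1* 1 Active and 5 Activity Reduction mice lie above every other mouse.

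Of the hindlimb genes, *Tbx4* (chromosome 11, 85776887 to 85806923, plus strand) had 152 to 206 normalized counts in Inactive mice, with a median of 185. Active mice had 93.7 to 180, with a median of 161, and Activity Reduction mice had 173 to 232, with a median of 189. Activity Reduction mice lay above every Active mouse in 6 of 7 cases, and they overlapped widely with Inactive mice. The log2 fold change was 0.36 (standard error 0.118) against the Active group and 0.145 (standard error 0.117) against the Inactive group. The Active mean was lowest, at 154 ± 29.8 normalized counts (SD, n = 7), and Active replicate 4 had 93.7, well under the others. *Pitx1* (chromosome 13, 55972864 to 55984005, minus strand) had 9.89 ± 4.12, 7.98 ± 1.85 and 10.9 ± 4.89 normalized counts in the Inactive, Active and Activity Reduction groups. With so few counts, the log2 fold changes had standard errors of 0.331 to 0.344, so a small difference could not be told from none at this depth.

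*Tbx15* (chromosome 3, 99147697 to 99294185, plus strand) had 8277 to 11623 normalized counts in Inactive mice, with a median of 9132. Active mice had 9070 to 10279, with a median of 9355, and Activity Reduction mice had 8533 to 12681, with a median of 10802. The groups overlapped. The Activity Reduction mean was higher by 11.5% than the Inactive mean and by 10.1% than the Active mean, with log2 fold changes of 0.16 and 0.14 (standard error 0.073 for both). Among the 13 low-liver libraries the log2 ratio of the means was 0.22 relative to Inactive mice and 0.17 relative to Active mice. In the other 8 it was 0.02 (2 mice against 1) and -0.07 (2 against 5).

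*Six4* (chromosome 12, 73146383 to 73160230, minus strand) had 746 to 1247 normalized counts in Inactive mice, 825 to 1041.5 in Active mice and 751 to 1168 in Activity Reduction mice. Its medians were 1019, 921 and 904 in this order. *Eya1* (chromosome 1, 14239167 to 14380543, minus strand) had 1001 to 1259, 962 to 1200 and 960.1 to 1151 normalized counts, with medians of 1109, 1066 and 1075. For both genes the 3 groups overlapped. The log2 fold changes of *Six4* were -0.16, -0.14 and 0.02 (standard error 0.102 each) for Active against Inactive, Activity Reduction against Inactive and Activity Reduction against Active mice. Those of *Eya1* were -0.04, -0.09 and -0.05 (standard error 0.059 each). For both genes the SD within the Inactive group, 182 and 77.6 normalized counts, was above the largest difference between group means.

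**Figure D3:**
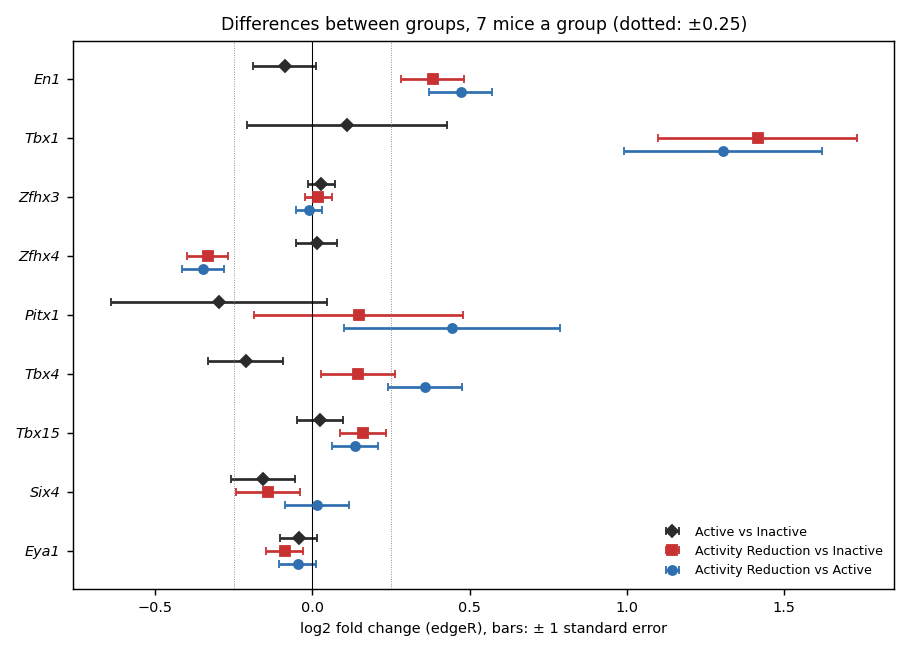
Log2 fold changes from the edgeR model for the 9 genes in the 3 comparisons (horizontal axis, bars of 1 standard error, dotted lines at the fold threshold of 0.25 in either direction). *Tbx1*, *En1* and *Zfhx4* lie past the dotted lines in both Activity Reduction comparisons, with 1.42, 0.38 and -0.33 against the Inactive group, and *Zfhx3* and *Eya1* lie near 0 in all 3.

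A gene was called when its Benjamini-Hochberg adjusted p-value over all 16129 genes tested was under 0.05 and its log2 fold change lay above 0.25 or below -0.25. All 9 genes passed edgeR's filter on low counts. In edgeR's quasi-likelihood test, 0 of the 9 were called between Active and Inactive mice, where 0% of all genes were called. Between Activity Reduction and Inactive mice it was 0 of 9 (0.0124% of all genes), and between Activity Reduction and Active mice 0 of 9 (0%). At an unadjusted p-value under 0.05 there were 0, 4 and 4 of the 9 in these comparisons, and 1754, 1247 and 2149 of all genes. DESeq2, the tool the authors used, called 0, 2 and 3 of the 9 when fitted on all 3 groups. It called 0.424%, 0.252% and 0.869% of the 13457, 9109 and 13457 genes to which it gave an adjusted p-value. It gave no adjusted p-value to *Pitx1* in any comparison, or to *Tbx4* between Activity Reduction and Inactive mice. In edgeR, the count moved when 1 library was left out. Without Active replicate 3 it called *Tbx1* relative to Inactive mice and *En1* and *Tbx1* relative to Active mice, where 0.0369% and 0.0492% of all genes were called. Without Activity Reduction replicate 7 it called *Zfhx4* relative to Inactive mice and *En1* and *Zfhx4* relative to Active mice, where 0.0184% and 0.0553% of all genes were called. DESeq2, when fitted on all 3 groups, called *Tbx1* and *Zfhx4* against the Inactive group, and *En1*, *Tbx1* and *Zfhx4* against the Active group. Since the 9 were chosen by these same values, nothing is read from these counts. The groups overlapped for each of the 9 genes in each comparison. Over all genes, 0.254%, 0.118% and 0.291% had groups that did not overlap in the same order of comparisons. Each pair of these comparisons shares a group of 7 mice.

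The division by liver transcripts was not used to choose these genes, so it could be tested. In an edgeR model with the group and the division, 677 genes were called for the division (4.2% of all genes tested), and 0 of the 9. The smallest adjusted p-value among the 9 was that of *Tbx15*, with 0.261 and a log2 difference of -0.16 (standard error 0.064) in libraries with more liver transcripts. *Zfhx4* had -0.12 (standard error 0.061, adjusted p-value 0.446 from the same edgeR test). *Tbx1* and *En1* had 0.07 and -0.03, with standard errors of 0.312 and 0.097.

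The levels of *Tbx1* went with those of other genes from library to library. Of the 21 libraries, 6 had more than 380 normalized counts of *Tbx1*. This cut was set after the values were seen, and 5 of the 6 were Activity Reduction libraries. The 6 also held 5 of the 6 highest values of *En1*. Both genes were picked with their group values in view and both were high in the Activity Reduction group, so this overlap is a description only. The 5 lowest summed levels of 10 slow fibre genes (such as *Myh7*, the slow myosin heavy chain) were also in these libraries, with 35932, 49360, 53351, 69282 and 86446 normalized counts, Active replicate 3 with 53351 among them. The exception was Activity Reduction replicate 3, which had the most *Tbx1*, 640, and a slow fibre sum of 109320. The 15 other libraries had slow fibre sums from 93062 to 136740. By group, the slow fibre sum had a median of 125560 in Inactive mice, 116730 in Active mice and 86446 in Activity Reduction mice. *Scx*, a tendon transcription factor, had 199 to 243 normalized counts in the 6 libraries and 83.6 to 178 in the others. The summed level of 8 tendon genes, *Scx* included, did not separate these libraries, with 1334 to 2191 normalized counts (median 1456) in the 6 and 677 to 5088 (median 2210) in the other 15. By group its median was 1424 in Inactive, 2210 in Active and 1559 in Activity Reduction mice, with overlapping ranges. The part of fibre content in the *Tbx1* values was not tested. In whole muscle, a change in the number of cells of a kind and a change in RNA per cell cannot be told apart.

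**Figure D4:**
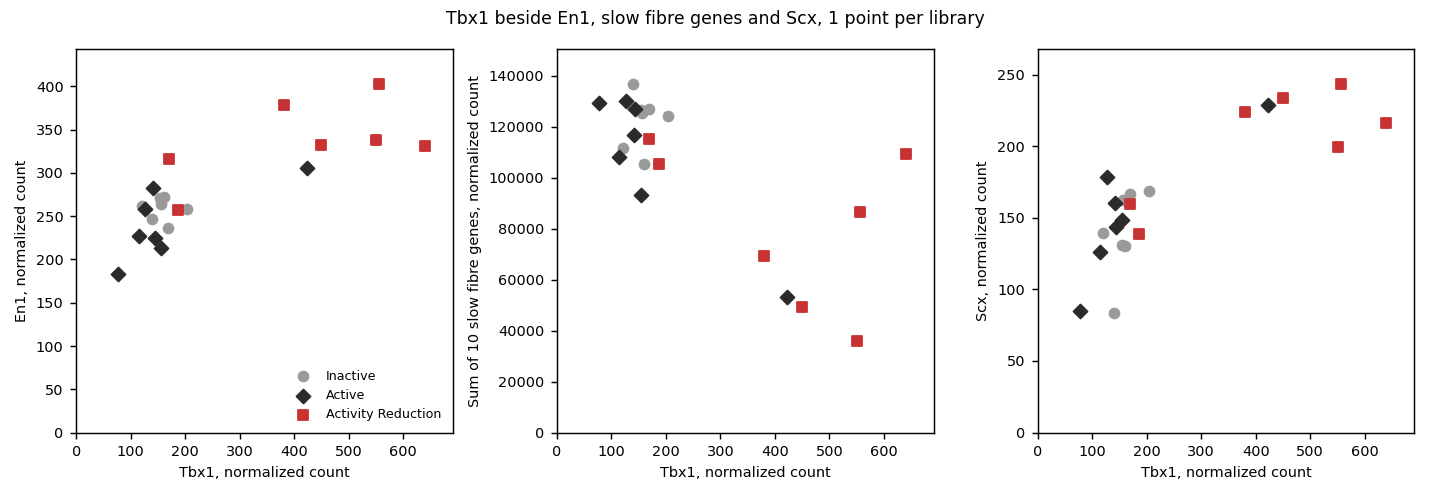
*En1*, the sum of 10 slow fibre genes and *Scx* (vertical axes, normalized counts) against *Tbx1* (horizontal axis, normalized counts), with 1 symbol per library and symbols by group. The 5 Activity Reduction libraries and 1 Active library with over 380 counts of *Tbx1* lie apart from the other 15, with higher *Scx*, mostly higher *En1* and, for 5 of them, the lowest slow fibre sums. *Scx* was picked for its likeness to *Tbx1*.

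Likeness was measured as the Pearson correlation of log2 normalized counts over the 21 libraries, after the mean of each group within each liver division was removed, among 11012 or 11013 genes with a mean of at least 100 normalized counts. These correlations are the highest of many and share libraries and depth, so they carry no p-value. Inactive replicate 1 was the only Inactive library with more liver transcripts, so nothing of it was left once its mean was removed. Sets of 2 libraries, such as the Active ones with fewer liver transcripts, were left with mirrored values. The correlations thus rest on fewer free values than 21. Since the *Tbx1* values lie in separate sets of libraries, its correlations over all 21 cannot tell that split from likeness within a set. *Tbx1* was among the 3 genes most alike to *En1*, with 0.772, beside *Snx24* (0.832) and *Tesk1* (0.745). For *Tbx1* they were *Imp4* (0.804), *Scx* (0.802) and *Snx24* (0.799). For *Zfhx4* they were *Trmt2b* (0.845), *Zfp72* (0.815) and *Rbbp5* (0.770), and for *Tbx15* *Slc30a2* (0.889), *Cpeb3* (0.870) and *Lrrc58* (0.857). The gene most alike to *Zfhx3* was *Tiam1* (0.773), to *Pitx1* *Boc* (0.818), to *Tbx4* *Dlg5* (0.853) and to *Eya1* *Pafah1b1* (0.846). *Pitx1* rests on a few counts per library, so its value says little.

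Among the 9 genes themselves, *Tbx15* and *Six4* went in opposite directions, with a correlation of -0.660 by the likeness measure. The libraries with the most *Tbx15* were Activity Reduction replicate 5, with 12681 normalized counts, and Inactive replicate 7, with 11623. These held the least *Six4*, 751 and 746. *Eya1*, whose protein binds SIX-family proteins, had 0.392 with *Six4*. *Tbx4* and its chromosomal neighbour *Tbx2*, 42.8 kb away on the same strand of chromosome 11, had -0.408. These 3 pairs were chosen after their values were seen.

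**Figure D5:**
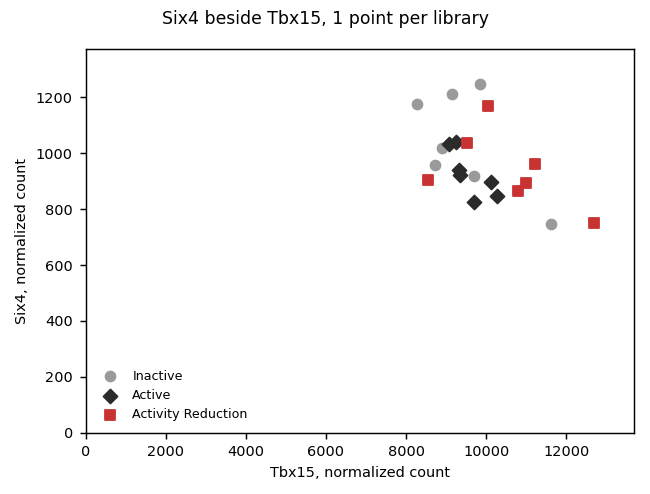
*Six4* (vertical axis) against *Tbx15* (horizontal axis), both in normalized counts, with 1 symbol per library and symbols by group. The 2 libraries with the most *Tbx15*, 12681 and 11623, hold the lowest *Six4*, 751 and 746.

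Relatives of the 9 genes were counted from 7 lists of families and pathways, with 95 genes, of which 71 were tested. In edgeR's quasi-likelihood test, 0 of the 71 were called in each of the 3 comparisons, beside 0%, 0.0124% and 0% of all genes. DESeq2 called 0, 0 and 2 of the relatives, the latter being *Six2* (higher) and *Casq2* (lower) in Activity Reduction against Active mice. Of all genes to which it gave an adjusted p-value, 0.424%, 0.252% and 0.869% were called. The median log2 fold change of the 71 was 0.02, 0.01 and -0.04, and that of all genes tested was 0.005, 0.006 and -0.001.

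Among the other genes of the SIX-family, EYA and DACH network, 8 of 10 were tested. *Six2* had 631 ± 86.1, 603 ± 161 and 859 ± 182 normalized counts (SD, n = 7) in the Inactive, Active and Activity Reduction groups, with adjusted p-values from edgeR of 0.45 against the Inactive and 0.163 against the Active group. *Dach2*, a cofactor gene of the same network, had 232 ± 37.2, 237 ± 65.8 and 187 ± 57.0. Among the myogenic regulators, 11 of 13 were tested. *Lbx1*, a factor of migrating limb muscle precursors, had 3086 ± 288, 3260 ± 166 and 3643 ± 373 (adjusted p-value from edgeR of 0.29 against the Inactive group). *Pax7*, the satellite cell factor, had 124 ± 8.19, 132 ± 25.3 and 154 ± 27.9 (0.551 in the same test).

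Among the other homeodomain factors of the limb, 16 of 22 were tested, with median log2 fold changes of 0.05, -0.08 and -0.04. *Alx4* had 14.0 ± 4.44, 21.9 ± 9.80 and 9.53 ± 7.04 normalized counts in the 3 groups, and *Isl1*, which acts upstream in the hindlimb field, had 10.6 ± 4.28, 8.94 ± 3.62 and 6.72 ± 4.89. *Pitx3*, a relative of *Pitx1*, was picked with its values in view, and it had 204 ± 44.3, 205 ± 48.8 and 279.5 ± 63.2 normalized counts. Among the other T-box factors, 6 of 14 were tested, and *Tbx6* had 28.7 ± 6.29, 28.5 ± 10.2 and 35.6 ± 9.70 while *Tbx21*, a factor of T cells, had 32.3 ± 7.22, 29.4 ± 3.18 and 29.3 ± 11.4. Of the limb signals, 8 of 14 were tested, and *Fgf10*, which *Tbx4* activates in the embryo, had 19.3 ± 4.84, 20.2 ± 5.87 and 14.0 ± 11.1 normalized counts, while *Sall1* had 12.5 ± 11.6, 29.8 ± 21.5 and 17.8 ± 16.9. None of these genes passed the test.

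Fibre genes were listed because *Six4*, *Eya1* and *Tbx15* act on fibre type. All 12 fast fibre genes were tested, and their median log2 fold changes were 0.02, 0.05 and 0.05. *Myh4*, the fastest myosin heavy chain, had 3727700 ± 210190, 4230100 ± 392870 and 4050900 ± 477340 normalized counts in the 3 groups, and *Eno3*, the muscle enolase, had 281890 ± 15354, 302860 ± 18646 and 305360 ± 23975. For the 10 slow fibre genes the medians were -0.200, -0.615 and -0.422, and all 10 had lower means in Activity Reduction than in Inactive mice, although none was called in edgeR. *Myh7* had 27988 ± 3146, 23939 ± 7443 and 16720 ± 7898 normalized counts, with an adjusted p-value of 0.506 from edgeR against the Inactive group, and *Atp2a2*, the slow calcium pump, had 31109 ± 2824, 26208 ± 7049 and 19092 ± 7053 (0.368). Across libraries *Tbx15* and *Six4* went little with the slow fibre sum (Pearson correlations of 0.048 and 0.039 by the likeness measure, over 21 libraries). With the sum of the fast fibre genes they had -0.030 and -0.180. *Eya1* had -0.213 with the slow and 0.045 with the fast fibre sum.

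Markers of other cells were summed in each library. Medians of the Inactive, Active and Activity Reduction groups were 30235, 31558 and 26029 normalized counts for 10 fibroblast genes and 2922, 2952 and 3094 for 8 satellite cell genes. They were 11939, 12910 and 11650 for 8 endothelial genes, 3116, 3565 and 3942 for 8 Schwann cell genes, 13530, 13026 and 13304 for 8 adipocyte genes and 1218, 1715 and 1170 for 8 macrophage genes. For each of these lists the ranges of the 3 groups overlapped. The 8 keratinocyte genes had medians of 704, 551 and 533, with *Krt5*, *Krt14*, *Krt1* and *Dsg1a* at a median of 0 counts, and the 8 cartilage and bone genes had 208, 201 and 207, with *Acan*, *Bglap*, *Ibsp* and *Sp7* at 0. Some of these sums went with members by the likeness measure, over the same 21 libraries. The keratinocyte sum had 0.780 with *Six4* and -0.833 with *Tbx15*, and most of this sum was *Trp63*, which had 544 ± 95.1, 403 ± 35.7 and 420 ± 120 normalized counts (SD, n = 7) in the Inactive, Active and Activity Reduction groups. *Trp63* itself, named here after its values were seen, had 0.732 with *Six4* and -0.796 with *Tbx15*. The Schwann cell sum had -0.641 with *Zfhx4*, but -0.229 before the group and division means were removed. For the satellite cell sum and *Zfhx4* these values were -0.541 and -0.610. For the cartilage and bone sum and *Pitx1*, with its few counts, they were -0.624 and -0.568. The part of these cells in the values of the 9 genes was not tested.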

How the data were processed

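Poly(A) RNA was sequenced in paired-end mode. The authors trimmed reads (fastp), aligned them to GRCm39 (RNA STAR) and counted them per gene (featureCounts), and the deposited values are raw counts. Tool versions, annotation and strand setting were not given in the sources used here. A table named as normalized held the same values, 857913 of 857913, and served only for that comparison. Counts were divided by DESeq2 size factors to give normalized counts. The main test was edgeR 4.0.16 (R 4.3.3; TMM, filterByExpr, quasi-likelihood, Benjamini-Hochberg) on all 21 libraries, checked on simulated data, with DESeq2 1.42.0 as an alternative. The authors used DESeq2. Likeness used log2(normalized count + 1). Libraries were also split at a gap in 24 liver genes. No pair of libraries agreed within sampling noise. Equal replicate numbers did not pair the mice. Replicates were taken as separate mice from the sample names, and p-values measure the spread between these samples. The 9 genes and all lists were chosen with earlier results of these data known. Named relatives were those called in edgeR, otherwise the 2 with the largest fold change between Activity Reduction and Inactive mice in each list. The 3 most alike genes were named for *En1*, *Tbx1*, *Zfhx4* and *Tbx15*, and 1 for each other member. Some items that these rules name are not reported here. Alternatives changed the normalization, filter, tool, samples, covariates, block and fold threshold. Exons of *Pitx1* and *Tbx15* overlapped opposite-strand genes over 6.21% and 6.27% of their length, which counts without strand cannot tell apart. For *Tbx1* and *Zfhx3* such overlaps covered 1.22% and 2.64%. *Pitx1* also overlapped a same-strand gene over 4.07%, which strand cannot resolve. None of these overlapping genes was found in the count table.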

Additional observations from a re-analysis of the deposited data

Results flagged for a closer look

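*Tbx1* in Active replicate 3, with 423 normalized counts, stood apart from the other 6 Active libraries, which had 77.2 to 155. Its gap to the nearest library was 0.775 of the range of the group, above Dixon's 95% critical value for 7 samples. Of 27 sets of 7 values examined (9 genes in 3 groups) it was the 1 set so marked, and chance marks about 1 in 20 sets.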

How the results depend on the processing

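Of the fold changes of the 9 genes under all alternatives, 780 moved by less than the SD between single libraries of a group. The 1 that moved further was that of *En1* between Activity Reduction and Active mice, 0.28 with only the libraries with fewer liver transcripts. By this measure a change of sign could count as not moved, as for *Six4* between Activity Reduction and Active mice in 4 alternatives. Alternatives that left out a library of the group not compared could move a fold change little. Counts of called genes depended on the tool. Between Active and Inactive mice DESeq2 called 57 genes, 62 with independent filtering at 0.05, 32 with none and 75 on the 2 groups alone, and edgeR called 3 on the 2 groups alone. Between Activity Reduction and Inactive mice these were 23, 21, 22, 44 and 0, and edgeR called 0 with RLE size factors, 1 with the liver division as a covariate, 0 with only the libraries with fewer liver transcripts and 4 with the replicate block. Between Activity Reduction and Active mice DESeq2 called 117, 115, 60 and 132 genes, and edgeR with RLE 1. The DESeq2 settings on independent filtering were chosen after seeing the data. Of the 9 genes, DESeq2 called 2 against the Inactive group (0 with filtering at 0.05, where 1 of the 9 was given an adjusted p-value, 2 with no independent filtering, 3 on the 2 groups alone) and 3 against the Active group (3, 3 and 2 in the other settings). Of the relatives it called 2, 2, 1 and 1 against the Active group, and 1, *Atp2a2*, against the Inactive group with filtering at 0.05. Leaving out each library in turn gave 0 to 1, 0 to 6 and 0 to 9 called genes in the 3 comparisons. The 6 came without Active replicate 3, and the 9 without Activity Reduction replicate 7. Called members ranged from 0 to 1 against the Inactive and 0 to 2 against the Active group. Members were called only without Active replicate 3 or Activity Reduction replicate 7, for which the shares of all genes called are given above. For the liver division, 632 to 702 genes were called, and the sign of the log2 difference turned for *En1* (-0.083 to 0.024), *Tbx1* (-0.135 to 0.207), *Zfhx3* (-0.036 to 0.005) and *Pitx1* (-0.302 to 0.015). The cause was not tested. As a check of the pairing, same-numbered libraries of different groups had correlations of -0.321 to 0.689, 4 of 21 libraries correlated best with their own number, and the replicate block changed no other call. Depth limits *Pitx1* most, with 3 to 18 counts per library.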
